A study of Mus musculus with 11 samples.

Results

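Cytochrome P450 genes of families 1 to 3 were examined in the skin and small intestine of mice that received imiquimod (IMQ) or vehicle cream on the skin. The members were the genes whose symbol is Cyp, a family number from 1 to 3, a subfamily letter and a number. This rule uses names only and found 60 of the 45777 genes in the table, 3 of family 1, 50 of family 2 and 7 of family 3. The mice were BALB/c animals of either sex, aged 8 to 10 weeks when treatment began. Each mouse was shaved and treated daily, on the back and right ear, for 5 to 8 days with 62.5 mg of a 5% IMQ cream (Aldara) or with Vaseline. IMQ is a small molecule that activates Toll-like receptor 7, and its repeated use on mouse skin is a common model of psoriasis. The Aldara cream base was not given to the controls, so IMQ and its cream base cannot be told apart, and the labels give neither the segment of small intestine nor the skin site that was sampled. Skin gave 3 control libraries (numbers 1 to 3) and 3 after IMQ (4 to 6), and small intestine gave 3 control libraries (7 to 9) and 2 after IMQ (10 and 11), with 44995414 to 58526384 counts each. Nothing in the labels ties libraries to separate mice or tissues to each other, so the p-values measure the spread between these libraries.

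P450 enzymes are heme proteins of the endoplasmic reticulum that insert an oxygen atom into fat-soluble substrates, with electrons passed on by P450 oxidoreductase (Por) and cytochrome b5. Families 1 to 3 handle drugs, plant and combustion products, and also arachidonic acid, retinoids, vitamin D and bile acids. Family 1 genes are classical targets of the aryl hydrocarbon receptor (Ahr with its partner Arnt), and many Cyp2b, Cyp2c and Cyp3a genes respond to the nuclear receptors CAR (Nr1i3) and PXR (Nr1i2). Enterocytes meet these compounds in food, and keratinocytes and sebaceous cells meet them at the body surface.

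Levels are given in FPKM, the deposited measure of reads scaled by transcript length and library size, and differences as log2 fold changes with their SE from edgeR on the counts. A gene was called when its p-value, adjusted over all genes tested, was under 0.05. Promoter sequences of 4 members are printed. Those of *Cyp1a1* and *Cyp2w1* are shown because both genes fell in IMQ-treated skin and both windows hold GCGTG. Those of *Cyp3a57* and *Cyp3a11*, of the same gene cluster, are shown because these genes were found in opposite tissues. All 4 are RefSeq sequence of the build GRCm38.p6, from 250 bases before to 50 bases after the annotated start. They are printed in the direction of transcription. A stretch just after the start was sought in the GENCODE transcripts of the same gene. It was found for *Cyp1a1*, *Cyp2w1* and *Cyp3a11* and not for *Cyp3a57*, whose start is therefore less certain. The same holds for some members counted below, among them *Cyp2j8* and *Cyp2c68*. Capitals mark GCGTG, the core of the sequence bound by Ahr and Arnt, TATAAA, the TATA motif, and AGGTCA and AGTTCA, repeat units bound by many nuclear receptors, on either strand. The windows are chr9:57697363-57697662 on the plus strand for *Cyp1a1*, chr5:139352366-139352665 on the plus strand for *Cyp2w1*, chr5:145345019-145345318 on the plus strand for *Cyp3a57* and chr5:145879805-145880104 on the minus strand for *Cyp3a11*.
Cyp1a1: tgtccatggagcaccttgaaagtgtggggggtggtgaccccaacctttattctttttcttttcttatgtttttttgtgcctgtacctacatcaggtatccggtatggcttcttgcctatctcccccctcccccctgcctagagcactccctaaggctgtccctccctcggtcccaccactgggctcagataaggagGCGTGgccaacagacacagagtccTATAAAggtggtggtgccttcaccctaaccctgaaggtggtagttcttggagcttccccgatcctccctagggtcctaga
Cyp2w1: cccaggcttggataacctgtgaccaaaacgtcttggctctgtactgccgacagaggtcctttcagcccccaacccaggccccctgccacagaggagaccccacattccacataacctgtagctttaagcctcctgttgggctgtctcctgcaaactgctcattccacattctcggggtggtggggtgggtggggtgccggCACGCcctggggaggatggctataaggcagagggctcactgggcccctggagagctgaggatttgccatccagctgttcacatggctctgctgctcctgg
Cyp3a57: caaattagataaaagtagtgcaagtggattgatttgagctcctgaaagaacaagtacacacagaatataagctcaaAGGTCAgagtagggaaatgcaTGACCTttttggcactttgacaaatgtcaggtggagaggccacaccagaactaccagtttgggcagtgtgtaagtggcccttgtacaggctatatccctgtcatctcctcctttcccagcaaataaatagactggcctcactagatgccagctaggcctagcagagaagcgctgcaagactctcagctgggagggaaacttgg
Cyp3a11: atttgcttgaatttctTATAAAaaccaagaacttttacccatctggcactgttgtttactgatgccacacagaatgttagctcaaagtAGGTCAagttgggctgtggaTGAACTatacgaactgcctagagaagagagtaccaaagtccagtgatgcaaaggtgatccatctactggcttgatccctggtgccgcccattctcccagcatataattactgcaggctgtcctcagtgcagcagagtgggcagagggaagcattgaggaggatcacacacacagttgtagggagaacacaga

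The *Cyp1a1* window held GCGTG and TATAAA. The *Cyp2w1* window held GCGTG on the opposite strand, printed as CACGC. The *Cyp3a57* window held AGGTCA on each strand and neither of the other motifs, and the *Cyp3a11* window held TATAAA and AGGTCA, and also AGTTCA on the opposite strand. Promoters were at hand for 51 members, and 10 of them (19.6%) held GCGTG, against 35.2% of the 27025 promoters of all genes. TATAAA was found in 26 (51.0%), against 15.7% of all promoters, and AGGTCA in 18 (35.3%), against 18.1%. AGTTCA was in 6 (11.8%), against 15.7%. Of the 5 members called lower in IMQ-treated skin, 4 had a promoter at hand, and GCGTG was in 2 of these and not in *Cyp3a57* or *Cyp2j8*. A match is a string of letters and was not tested as a binding site.

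Library skin control 2 stood apart from the other skin libraries and touches several of the results. It carried transcripts of 7 intestinal members, namely *Cyp2c55*, *Cyp2c65*, *Cyp2c66*, *Cyp2c68*, *Cyp2d26*, *Cyp3a11* and *Cyp3a25*, at 0.648% to 1.14% of their mean in control small intestine, with a median of 0.870%. The 12 enterocyte markers had a median of 1.03% in the same library, while in the other 5 skin libraries the medians of the members were 0% and those of the markers at most 0.0366%. The 7 members were chosen for their level in control small intestine and for few or no counts in skin controls 1 and 3. Their low values in those 2 libraries were thus set by the choice. The markers and the IMQ-treated libraries were not part of that rule. The hair follicle markers summed to 46.2 FPKM in skin control 2, to 735 and 1159 in skin controls 1 and 3, and to 28.3 to 33.4 in IMQ-treated skin. The tissues otherwise matched their labels, with enterocyte markers summing to 13096 to 23649 FPKM in small intestine and keratinocyte markers to 5472 to 14123 FPKM in skin. The calls in skin are therefore also given without it.

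**Figure D1:**
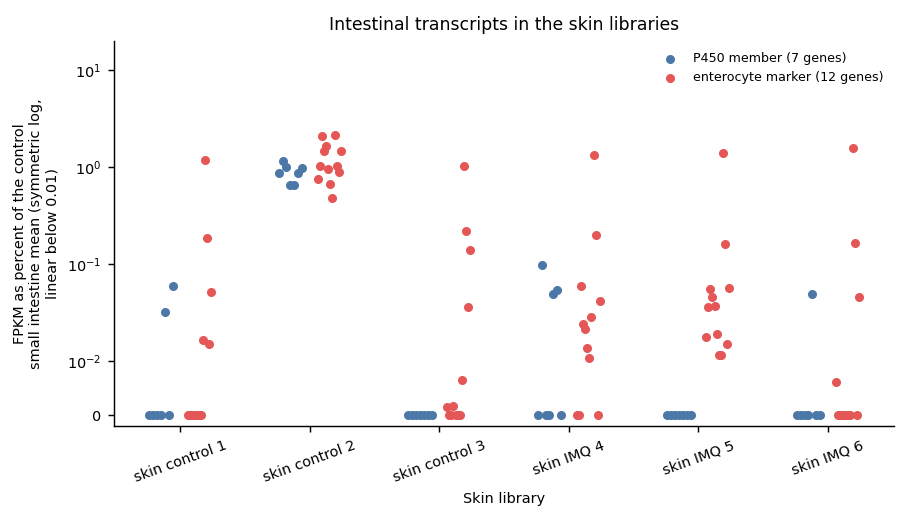
FPKM of 7 intestinal P450 genes and 12 enterocyte markers in each of the 6 skin libraries, as a percentage of their mean in control small intestine (vertical axis, symmetric log scale, linear below 0.01). Each point is a gene. The P450 genes were chosen for few or no counts in the other skin controls. The P450 points of skin control 2 lie between 0.648% and 1.14%, and those of the other skin libraries at or below 0.0977%.

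The 60 members were spread unevenly over the tissues. No count was found in any library for 12 members (*Cyp2a22*, *Cyp2c37*, *Cyp2c39*, *Cyp2c50*, *Cyp2c54*, *Cyp2d9*, *Cyp2d11*, *Cyp2d13*, *Cyp2d34*, *Cyp2d40*, *Cyp2j7* and *Cyp2t4*). A count of 0 allows up to 3 counts, or 0.0513 to 0.0667 CPM in these libraries (counts scaled to the library total), by counting error alone. Another 14 had counts in small intestine and none in skin, 6 had counts in skin and none in small intestine, and 28 had counts in both. A mean of at least 0.5 FPKM in a group was reached by 34 members, and 14 were counted but stayed under that level in every group. The latter included *Cyp1a2*, the family 1 gene best known from liver, with 2 counts in a single small intestine library. The members together summed to 257 to 403 FPKM in control skin, 234 to 317 in IMQ-treated skin, 664 to 949 in control small intestine and 926 to 1384 in small intestine of IMQ-treated mice.

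**Figure D2:**
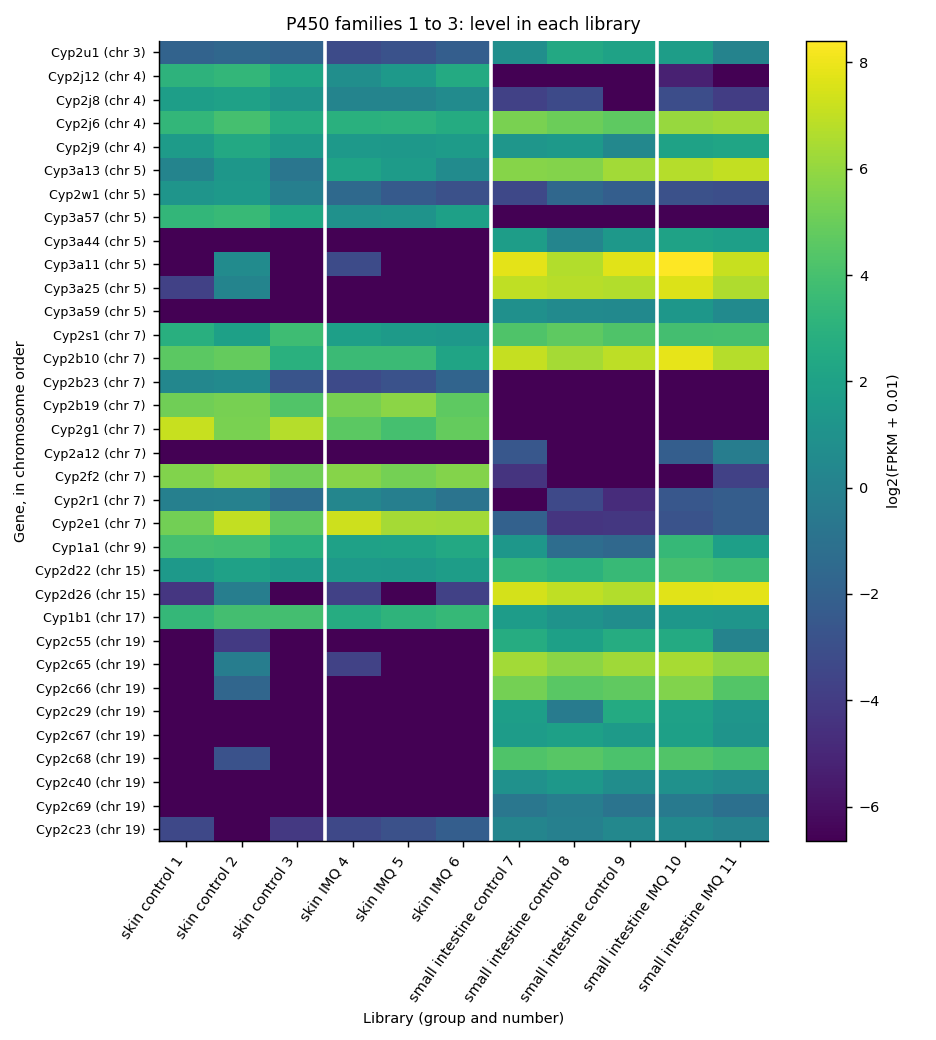
Level of the 34 members with a mean of at least 0.5 FPKM in a group, as log2(FPKM + 0.01), in each of the 11 libraries. Rows are genes in chromosome order, columns are libraries, and white lines part the 4 groups. Most Cyp2c and Cyp3a genes are brightest in the 5 small intestine libraries, while *Cyp2b19*, *Cyp2g1* and *Cyp3a57* are bright only in the 6 skin libraries.

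Most of the P450 genes tested differed in level between control skin and control small intestine. The sets overlapped, and *Cyp2b10*, *Cyp2j6* and *Cyp2s1* were among the 10 members with the highest mean FPKM in both. Of the 37 members tested, 36 were called, 23 higher in small intestine and 13 higher in skin, while 58.1% of all genes tested were called in this comparison. The filter for it asked for enough counts in 1 tissue only, so members found in a single tissue passed it. In bulk tissue, fewer cells of a type and less RNA per cell cannot be told apart. Without skin control 2, 37 of 39 members tested were called. The exception among the 37 was *Cyp2j9*, an arachidonic acid metabolizing enzyme, with 3.11, 5.52 and 2.88 FPKM in skin and 2.36, 2.80 and 1.32 in small intestine (log2 fold change -0.41, SE 0.40, adjusted p = 0.412).

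In control small intestine *Cyp3a11*, a main drug-oxidizing enzyme of mouse liver and gut, had the highest mean, 180 ± 67.7 FPKM (SD, n = 3). It was followed by *Cyp2d26* (132 ± 35.7), *Cyp2b10* (113 ± 26.8), *Cyp3a25* (112 ± 10.9), *Cyp2c65* (70.6 ± 13.5) and *Cyp3a13* (60.5 ± 17.3). The ranges of *Cyp3a11*, *Cyp2d26*, *Cyp2b10* and *Cyp3a25* overlapped each other, so their order was not resolved. In control 8 *Cyp3a11* (102 FPKM) lay below *Cyp2d26* (124) and *Cyp3a25* (111). *Cyp2j6* (33.7 ± 8.31), *Cyp2c66* (29.8 ± 8.02), *Cyp2s1* (21.5 ± 3.82) and *Cyp2c68* (19.9 ± 2.29) came next. These 10 genes held 95.0% of the summed member FPKM of this group.

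In control skin the leading gene was *Cyp2g1*, a P450 known from the olfactory mucosa, with 139.5, 41.7 and 105.5 FPKM in skin controls 1 to 3. The ethanol and acetone oxidizing *Cyp2e1* had 36.1, 129.7 and 26.2 FPKM in the same libraries. Skin control 2 was thus the lowest of the group for *Cyp2g1* and the highest for *Cyp2e1*, and the order of these 2 genes was turned in it. *Cyp2f2*, best known from airway club cells, had a mean of 49.7 ± 15.2 FPKM (SD, n = 3), and *Cyp2b19*, an arachidonic acid epoxygenase of differentiated keratinocytes, of 31.6 ± 10.5. *Cyp2b10* (20.1 ± 11.2), *Cyp1b1* (13.5 ± 2.57), *Cyp1a1* (12.6 ± 4.50), *Cyp2j6* (10.6 ± 4.78), *Cyp3a57* (8.72 ± 3.25) and *Cyp2s1* (8.04 ± 4.88) completed the first 10, with 92.5% of the summed level, and most neighbors in this order overlapped.

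The family 1 genes *Cyp1a1* and *Cyp1b1* were higher in skin. *Cyp1b1*, which oxidizes estradiol and retinoids, was 4.23-fold higher in control skin than in control small intestine (log2 fold change -2.08, SE 0.28, adjusted p = 0.000791). *Cyp1a1*, which clears polycyclic aromatic hydrocarbons and other Ahr ligands, was 8.55-fold higher (-3.10, SE 0.83, adjusted p = 0.0165), and missed the threshold without small intestine control 8 (adjusted p = 0.0516).

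Several members had no count in the controls of the other tissue. *Cyp2g1* was at least 3388-fold higher in control skin, with the limit set by 3 counts per library. The bounds were 1656-fold for *Cyp2b19*, 334-fold for *Cyp3a57*, 282-fold for *Cyp2j12* and 39.8-fold for *Cyp2b23*. In the other direction *Cyp2c29*, *Cyp2c67*, *Cyp3a44*, *Cyp2c40* and *Cyp3a59* had no count in control skin and were at least 59.8-fold to 112-fold higher in control small intestine. For *Cyp3a11*, *Cyp2c65*, *Cyp2c66*, *Cyp2c68* and *Cyp2c55* skin control 2 held counts. Against skin controls 1 and 3 alone, which had none, *Cyp3a11* was at least 7183-fold and *Cyp2c65* at least 2670-fold higher in control small intestine.

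Members of the same gene cluster were found in opposite tissues. In the Cyp3a cluster on chromosome 5, *Cyp3a57* had 9.84, 11.3 and 5.06 FPKM in control skin and no count in small intestine. *Cyp3a44*, *Cyp3a11*, *Cyp3a25* and *Cyp3a59*, which follow it along the chromosome, were higher in small intestine, and *Cyp3a16*, between *Cyp3a57* and *Cyp3a44*, did not exceed 0.183 FPKM in any library. In the Cyp2j cluster on chromosome 4, *Cyp2j12* and *Cyp2j8* were higher in skin, *Cyp2j6* was 4.20-fold higher in small intestine and *Cyp2j9* was not called, although its intestinal values all lay below its skin values. In the cluster on chromosome 7, *Cyp2s1* and *Cyp2b10* at its lower end were higher in small intestine (3.75-fold and 7.66-fold), while *Cyp2b23*, *Cyp2b19*, *Cyp2g1* and *Cyp2f2* were higher in skin. The 15 Cyp2c genes on chromosome 19 held 11 that were called higher in small intestine and 0 called higher in skin by edgeR, and the other 4 had no count in any library. *Cyp2c23*, called higher in small intestine, also had 6 to 23 counts in 5 of the 6 skin libraries.

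**Figure D3:**
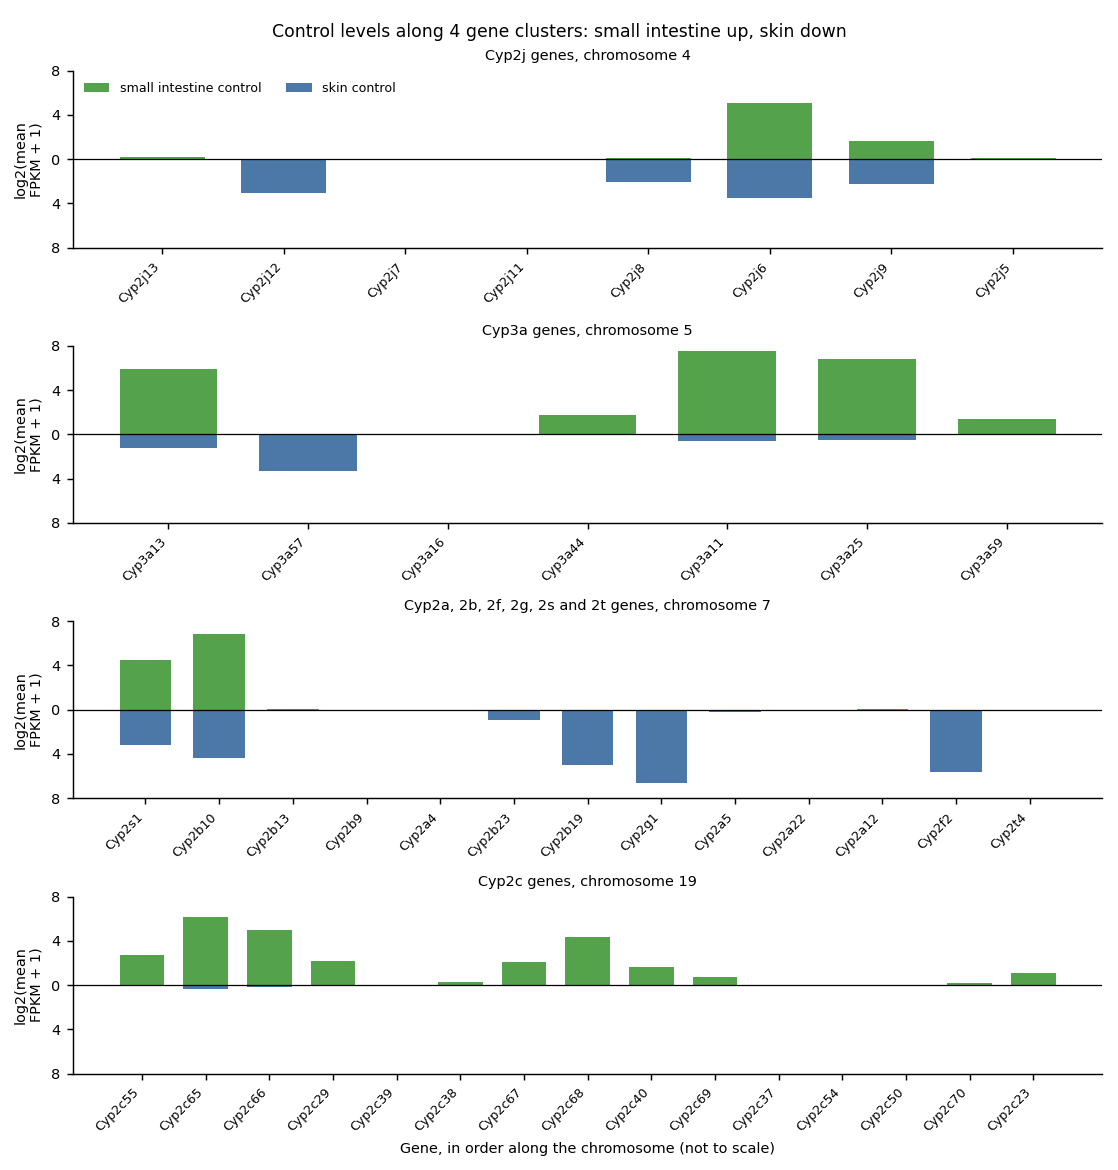
Mean level in control small intestine (green, upward) and control skin (blue, downward) as log2(mean FPKM + 1), for the genes of 4 clusters in their order along the chromosome (horizontal axis, not to scale). The Cyp2c genes have bars upward with at most a small one downward, while *Cyp2j12*, *Cyp3a57*, *Cyp2b19* and *Cyp2g1* have bars downward only.

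The promoter letters were counted by tissue group. GCGTG was in 6 of the 12 promoters at hand of members called higher in skin (*Cyp1a1*, *Cyp1b1*, *Cyp2ab1*, *Cyp2j12*, *Cyp2r1* and *Cyp2w1*) and in 3 of the 20 of members called higher in small intestine (*Cyp2b10*, *Cyp2c68* and *Cyp2j13*). TATAAA was in 2 of the 12 and 12 of the 20, and 9 of the latter were Cyp2c genes. AGGTCA was in 4 of the 12 (33.3%) and 6 of the 20 (30.0%), and AGTTCA in 1 of the 12 and 3 of the 20. Cyp2c genes are close copies of each other and not independent cases, and no difference was tested.

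The comparison of IMQ-treated with control skin asks whether the local inflammation went with a change in these genes. Of the 60 members, 21 had a count in every skin library and were tested, and 5 were called, all lower in IMQ-treated skin. In this comparison 6.74% of all 20512 genes tested were called, and 2.69% were called lower. The members' median log2 fold change was -0.73, against -0.01 over all genes, and 17 of the 21 were below 0.

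*Cyp1a1* had 15.7, 14.6 and 7.40 FPKM in control skin and 3.96, 4.13 and 5.31 in IMQ-treated skin. Each treated library lay below each control, although skin control 3 was nearer to the treated group than to the other controls. The gene fell by 1.45 on the log2 scale (SE 0.30, adjusted p = 0.0379), that is 2.74-fold.

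*Cyp2g1* had 24.9, 15.5 and 28.6 FPKM in IMQ-treated skin, below the 41.7 of skin control 2 and far below the other controls. It fell by 1.99 on the log2 scale (SE 0.43, adjusted p = 0.0428). Leaving out each of the 6 skin libraries in turn gave adjusted p-values of 0.00873 to 0.157. The gene was called only without skin control 2, the library nearest to the treated group (adjusted p = 0.00873).

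*Cyp2w1*, an enzyme described in fetal gut and colon tumors, had the largest change of the called members. It had 2.32, 2.65 and 0.878 FPKM in control skin and 0.337, 0.182 and 0.123 in IMQ-treated skin, so the groups did not overlap. It fell by 3.09 on the log2 scale (SE 0.59, adjusted p = 0.0310), 8.53-fold.

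*Cyp3a57*, the Cyp3a member found in skin alone, had 9.84, 11.3 and 5.06 FPKM in control and 1.97, 2.13 and 3.80 in IMQ-treated skin. It fell by 1.69 on the log2 scale (SE 0.38, adjusted p = 0.0479). *Cyp2j8* had 3.46, 3.84 and 2.34 FPKM in control and 1.09, 1.10 and 1.54 in IMQ-treated skin and fell by 1.33 (SE 0.27, adjusted p = 0.0363). In both genes, and in *Cyp1a1* and *Cyp2w1*, skin control 3 was the lowest control and the groups did not overlap.

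A further 2 members did not overlap between the groups and were not called. *Cyp2s1*, a P450 of barrier epithelia, had 7.08, 3.71 and 13.3 FPKM in control and 3.55, 2.93 and 2.64 in IMQ-treated skin (log2 fold change -1.33, SE 0.42, adjusted p = 0.113). *Cyp2u1*, which oxidizes long-chain fatty acids, had 0.268 to 0.312 FPKM against 0.0975 to 0.214 (-0.93, SE 0.29, adjusted p = 0.115). In total 7 of the 21 members lay entirely lower in IMQ-treated skin and 0 entirely higher, where 13.3% and 15.1% of all genes did so.

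The other skin members overlapped between the groups. *Cyp2b23* (-2.48, SE 0.85, adjusted p = 0.141) had 1.23 and 1.47 FPKM in skin controls 1 and 2, 0.140 in control 3 and 0.0951 to 0.278 in the treated libraries. *Cyp1b1* (-0.54, SE 0.22, adjusted p = 0.194), *Cyp2j12* (-1.13, SE 0.47, adjusted p = 0.213) and *Cyp2b10* (-1.02, SE 0.58, adjusted p = 0.352) were also not called. The abundant *Cyp2b19* and *Cyp2f2* had log2 fold changes of 0.39 (SE 0.36) and -0.09 (SE 0.26). *Cyp2e1* had 151.7, 82.7 and 80.1 FPKM in IMQ-treated skin, around the 129.7 of skin control 2 and above the other controls (0.74, SE 0.64, adjusted p = 0.548). Without skin control 2 it was called higher (adjusted p = 0.0319). *Cyp3a13* was the member with the highest log2 fold change, 0.99 (SE 0.60, adjusted p = 0.376), and was not called.

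The number of members called in skin rested on the libraries. It was 0 without skin control 1 or without any of the treated libraries 4, 5 and 6 in turn, with 8, 6, 6 and 9 members at an unadjusted p under 0.05, and 5 without skin control 2 or skin control 3. Without skin control 2, *Cyp2g1*, *Cyp2w1* and *Cyp2j8* were still called lower, *Cyp1a1* (adjusted p = 0.0555) and *Cyp3a57* (adjusted p = 0.0677) were not, and *Cyp2s1* was called lower (adjusted p = 0.0226). Without skin control 3, *Cyp1a1*, *Cyp2w1*, *Cyp3a57*, *Cyp2j8* and *Cyp2b23* were called lower.

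**Figure D4:**
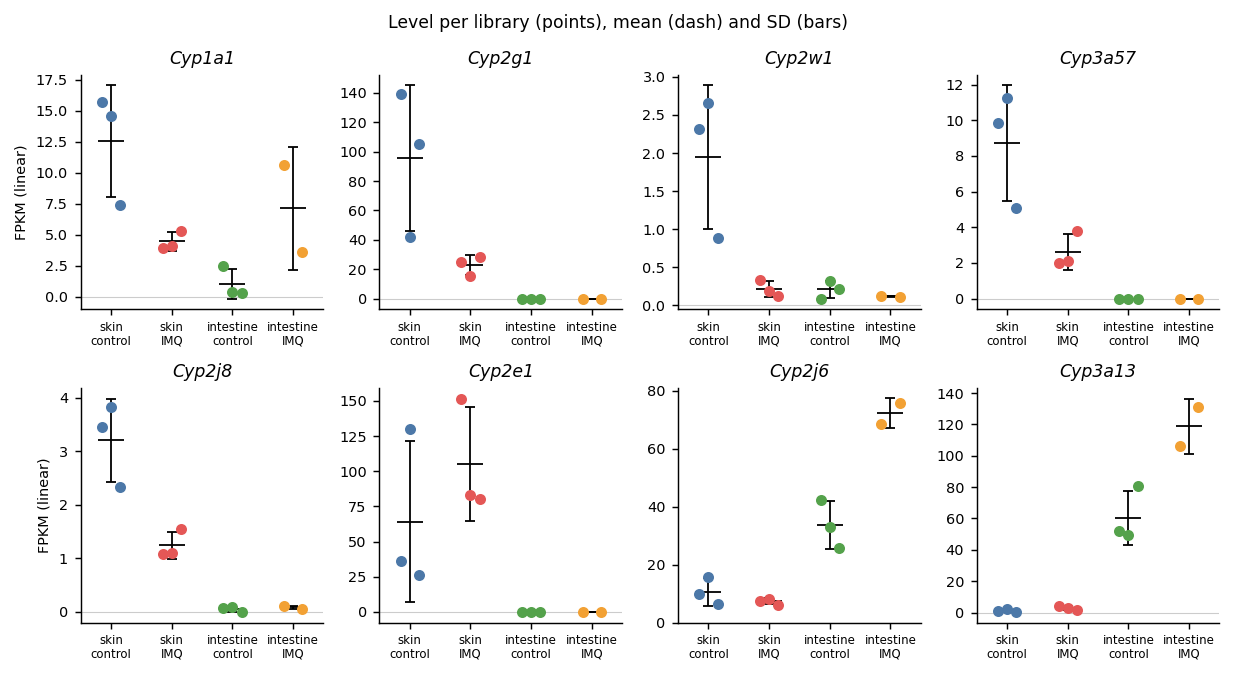
FPKM per library (points) with the mean (dash) and SD (bars) in the 4 groups for 8 members, on a linear axis that differs between panels. *Cyp1a1*, *Cyp2g1*, *Cyp2w1*, *Cyp3a57* and *Cyp2j8* lie lower in all 3 IMQ-treated skin libraries than in all 3 controls, while *Cyp2j6* and *Cyp3a13* lie higher in both IMQ libraries of small intestine than in its 3 controls.

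Markers of several cell types also differed between the skin groups. Sebaceous gland markers summed to 1327 to 2546 FPKM in control and 702 to 1179 in IMQ-treated skin, with 4 of 12 called lower (*Mc5r*, *Awat2*, *Far2* and *Fa2h*) and 0 higher. Hair follicle markers had 4 of 10 tested called lower (*Gata3*, *Hoxc13*, *Lef1* and *Krt28*), with the sums given above. Of 6 neutrophil markers tested, 5 were called higher. Their sum of 14.9 to 15.5 FPKM in control and 7035 to 8586 in IMQ-treated skin was mostly *S100a8* and *S100a9*, which inflamed keratinocytes also express, and the other markers did not exceed 20.4 FPKM. The called markers also included *Cxcr2*, *Csf3r* and *Retnlg*, which did not overlap between the groups. *Mpo* lay entirely lower in IMQ-treated skin and was not called. In that group *Mpo* and *Ly6g* were at most 0.316 and 0.173 FPKM. Macrophage markers summed to 239 to 391 FPKM in control and 649 to 881 in IMQ-treated skin, with 4 of 8 called higher (*C1qa*, *C1qb*, *C1qc* and *Adgre1*) and 0 lower. Keratinocyte markers summed to 5472 to 10605 FPKM in control and 8331 to 14123 in IMQ-treated skin and overlapped, and adipocyte markers to 1504 to 2333 and 1289 to 1488. The part of these cell types in the P450 changes was not tested.

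The small intestine was compared between IMQ and vehicle mice because the cream was put on the skin and the gut was examined at a distance. The authors measured IMQ in the serum and intestine of mice treated on the skin, so the gut was not free of the drug. The part of that exposure in the P450 differences was not tested. Of the 29 members with a count in all 5 libraries, 1 was called, *Cyp2j6*, and it was higher after IMQ. In this comparison 2.95% of all 19965 genes tested were called and 2.77% were called higher. The members' median log2 fold change was 0.40, against -0.02 over all genes, with 19 of 29 above 0.

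*Cyp2j6*, an arachidonic acid epoxygenase and drug oxidase of the gut, had 42.4, 33.1 and 25.8 FPKM in control small intestine and 68.5 and 75.8 after IMQ. It rose by 1.14 on the log2 scale (SE 0.21, adjusted p = 0.0384), 2.21-fold, and the groups did not overlap. Leaving out each of the 5 libraries in turn gave adjusted p-values of 0.00775 to 0.240, and the gene was called only without control 7.

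Of the 29 members, 8 lay entirely higher after IMQ and 1 entirely lower, where 15.1% and 13.9% of all genes did so. The highest fold change was that of *Cyp1a1*, with 2.45, 0.400 and 0.324 FPKM in control and 10.7 and 3.62 after IMQ. Control 7 was several times above the other controls, and the difference was not called (log2 fold change 2.76, SE 0.85, adjusted p = 0.202). It was called without control 7 (adjusted p = 0.00456).

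*Cyp3a13*, a Cyp3a enzyme of the intestinal epithelium, had 51.8, 49.2 and 80.4 FPKM in control and 106 and 131 after IMQ (1.03, SE 0.27, adjusted p = 0.135). *Cyp2d26* had 171, 124 and 101 against 212 and 218 FPKM (0.75, SE 0.23, adjusted p = 0.199), and *Cyp2j9* 2.36, 2.80 and 1.32 against 4.08 and 4.65 (1.08, SE 0.31, adjusted p = 0.164). These 3 genes were not called by edgeR, but DESeq2 called them, with *Cyp2j6*, as higher. *Cyp2c70*, the enzyme that makes muricholic acids in mouse liver, was low, with 0.104 to 0.210 FPKM in control and 0.385 to 0.467 after IMQ (1.46, SE 0.37, adjusted p = 0.111). *Cyp2d22* (0.54, SE 0.19, adjusted p = 0.268) and *Cyp3a44* (0.74, SE 0.42, adjusted p = 0.579) were the other members above all controls. *Cyp2s1* was the member below all controls, with a mean of 21.5 ± 3.82 FPKM (SD, n = 3) in control and 15.2 ± 0.339 (n = 2) after IMQ (-0.44, SE 0.14, adjusted p = 0.236).

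*Cyp3a11*, which had the highest mean of the members in both small intestine groups, overlapped between the groups. It had 226, 102 and 211 FPKM in control and 339.6 and 143 after IMQ (0.43, SE 0.44, adjusted p = 0.801). *Cyp2b10* (0.59, SE 0.33, adjusted p = 0.579), *Cyp3a25* (0.42, SE 0.25, adjusted p = 0.599) and *Cyp2c65* (0.06, SE 0.24, adjusted p = 0.964) showed the same pattern, with library 10 above all controls and library 11 within or below their range. Library 10 thus held more of these transcripts than library 11, and with 2 treated libraries their mean is poorly fixed.

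**Figure D5:**
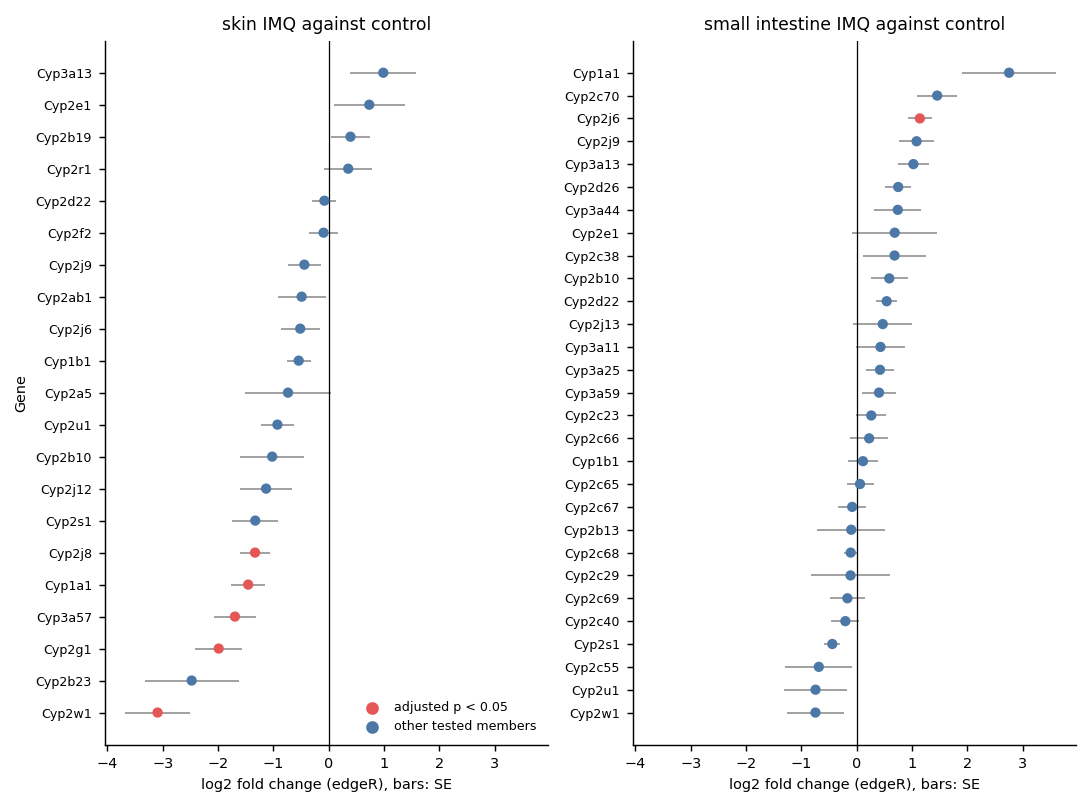
Log2 fold change of IMQ against control (horizontal axis, points) with its SE (bars) for the 21 members tested in skin and the 29 tested in small intestine. Red points are the called members. In skin 17 of the 21 points lie below 0 and the 5 red ones are all below 0, while in small intestine 19 of the 29 lie above 0 and the red point is *Cyp2j6*.

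Summed levels of position and cell type markers also differed between the small intestine groups. The 9 markers of proximal small intestine summed to 4177, 1542 and 2564 FPKM in controls 7 to 9 and to 5701 and 7276 after IMQ, and the 7 distal markers to 631 to 692 and 468 to 488. None of these 16 genes was called by edgeR. Enterocyte markers summed to 13096 to 19126 FPKM in control and 21467 to 23649 after IMQ, with 0 of 12 called. Of these markers 6 had a log2 fold change above 0 and 6 below. The higher sum was mostly *Apoa4*, with a mean of 2435 FPKM in control and 8430 after IMQ, and *Apoa1*, with 3633 and 5016. Macrophage markers summed to 135 to 203 FPKM in control and 727 to 811 after IMQ, and 5 of 8 were called higher. Hepatocyte markers, of interest because many of these enzymes are best known from liver, summed to 158 to 189 FPKM in control and 129 to 137 after IMQ. Nearly all of this was *Cps1*, which enterocytes also express, with 155 to 186 FPKM in control and 126.7 to 134.3 after IMQ. No other of the 12 exceeded 1.62 FPKM in small intestine, *Alb* was at most 0.133, and 4 were at 0 in all control libraries. The part of the sampled position and of these cells in the P450 differences was not tested.

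Whether the effect of IMQ differed between the tissues was tested in a model of all 11 libraries. For *Cyp1a1*, which fell in skin and was not called in small intestine, the log2 fold changes had opposite signs. Its log2 fold change was 4.21 higher in small intestine than in skin (SE 0.99), with an adjusted p of 0.0530, which missed the threshold. None of the 11 members tested was called by edgeR, where 2.55% of all genes tested were, and 4 had an unadjusted p under 0.05. These were *Cyp1a1*, *Cyp2j6* (1.67, SE 0.49, adjusted p = 0.108), *Cyp2j9* (1.54, SE 0.48, adjusted p = 0.132) and *Cyp2w1* (2.36, SE 0.86, adjusted p = 0.189). DESeq2 called the first 3 of them, so whether the tissues differed in these genes depended on the test.

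The genes around the P450 enzymes were described by lists. Of the 10 genes of the Ahr pathway, 1 was called higher in IMQ-treated skin and 0 lower, and 0 of the 9 tested in small intestine were called. The quinone reductase *Nqo1* had 7.91, 7.09 and 8.33 FPKM in control and 13.7, 12.3 and 11.2 in IMQ-treated skin (0.73, SE 0.14, adjusted p = 0.0305). *Nqo1* thus rose in the skin where *Cyp1a1* fell, and its effect differed between the tissues (-0.95, SE 0.18, adjusted p = 0.0234). *Tiparp*, a further Ahr target, had 6.86 to 7.59 FPKM in control and 9.56 to 17.9 in IMQ-treated skin (1.06, SE 0.24, adjusted p = 0.0502). *Ahr* itself (0.13, SE 0.30), *Arnt* (-0.03, SE 0.10) and the repressor *Ahrr* (0.31, SE 0.32) were not called in skin, with adjusted p-values of 0.621 to 0.914.

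Of the 19 transcription regulators of P450 genes, *Nfe2l2* (0.76, SE 0.15) and *Ppard* (0.91, SE 0.16) were called higher and *Ppara* (-1.17, SE 0.27) lower in IMQ-treated skin, of 12 tested. In small intestine *Pparg* was called higher (1.37, SE 0.22, adjusted p = 0.0195), of 18 tested. The receptors PXR and CAR belonged to the small intestine, with *Nr1i2* at 26.3 to 32.4 FPKM in control and 34.8 to 39.7 after IMQ (0.35, SE 0.15, adjusted p = 0.436) and *Nr1i3* at a mean of 17.7 ± 3.56 (SD, n = 3) and 26.2 ± 4.99 (n = 2), also without overlap (0.60, SE 0.18, adjusted p = 0.188). In skin they did not exceed 0.293 FPKM, the value of *Nr1i2* in skin control 2.

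The partner of all these enzymes, *Por*, had 60.4, 43.3 and 55.1 FPKM in control small intestine and 119.9 and 118.9 after IMQ. It rose by 1.21 on the log2 scale (SE 0.20, adjusted p = 0.0202), was the called gene of 6 electron transfer genes and was not called in skin (0.11, SE 0.16, adjusted p = 0.735). With each of the 5 libraries of small intestine left out in turn, *Por* was called 2 times. In skin 0 of the 6 genes were called and 5 had a log2 fold change below 0. There 4 of them (*Pgrmc1*, *Cyb5b*, *Pgrmc2* and *Cyb5r3*) lay entirely lower after IMQ, as did 13.3% of all genes tested. Of the 12 genes of heme synthesis and breakdown, the heme-degrading *Hmox1* was called higher in small intestine, with 1.40, 1.06 and 1.64 FPKM in control and 10.3 and 5.66 after IMQ (2.55, SE 0.31, adjusted p = 0.00519). In skin *Alad*, an enzyme early in heme synthesis, was called lower (-1.42, SE 0.26, adjusted p = 0.0258).

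Conjugating enzymes, which act after the P450 step, had 2 of 35 tested called higher in IMQ-treated skin (*Gsto1* and *Ugt1a7c*) and 2 lower (*Ephx1*, an epoxide hydrolase, and *Sult5a1*), and 0 of 40 in small intestine. *Ephx1* fell in skin (-0.85, SE 0.17, adjusted p = 0.0334), was not called in small intestine (1.14, SE 0.26, adjusted p = 0.0820), and its effect differed between the tissues (1.996, SE 0.34, adjusted p = 0.0127). Of the drug transporters, *Abcg2* (1.11, SE 0.16) and *Abcc3* (1.33, SE 0.28) were called higher in skin, of 10 tested, and *Abcc4* (0.92, SE 0.17) in small intestine, of 12. Of the 35 P450 genes of families 4 and above, 20 were tested in skin, where *Cyp11a1*, *Cyp7b1* and *Cyp4f18* were called higher and *Cyp17a1* and *Cyp39a1* lower, with a median log2 fold change of -0.10. In small intestine 1 of 21, *Cyp17a1*, was called, and it was lower.

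Several members are near-identical copies, and the counting of reads that match more than 1 of them is not given in the sources used here. Of 59 members in the annotation, 25 shared no stretch of 100 bases with another gene, and 8 shared at least 10% of theirs, led by *Cyp2c69* (35.4%) and *Cyp2c40* (34.4%). The levels of *Cyp2c69*, *Cyp2c40*, *Cyp2c67* and *Cyp2c68* are therefore uncertain. The 5 members called in skin shared at most 1.41%.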

How the data were processed

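Messenger RNA of skin and small intestine was made into strand-specific libraries and sequenced as paired-end reads of 100 bases, which the authors trimmed with Trimmomatic, aligned to mm10 with HISAT2 2.1.0 and quantified with StringTie 2.1.3b. The authors deposited whole-number read counts per gene, and the same deposited table holds their FPKM and TPM columns. The TPM values were not used. The strand setting of the counting and its treatment of reads that match several genes are not given in the sources used here.

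The counts were tested with edgeR 4.0.16 (quasi-likelihood, relative log expression factors) in R 4.3.3. Each tissue was fitted on its own for IMQ against control, with the genes counted at least 1 time in each of its libraries, and the interaction in a model of all 11 libraries. The control tissues were compared after the filterByExpr filter of edgeR. P-values were adjusted by Benjamini-Hochberg over all genes tested, and the SE is the log2 fold change divided by the square root of F. The code was tested on simulated data. Depth was 44995414 to 58526384 counts per library, so for abundant members the spread between libraries sets the precision, and intervals from a count of 0 cover counting error only.

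Named members were those called in any of the 4 comparisons, the 10 with the highest mean FPKM in each group, and those of families 1 and 3 with a mean of at least 0.5 FPKM. Of the companion lists, up to 4 called genes a list and a few key genes were named, and a few further members were chosen after their values were seen. The members and lists were chosen with earlier results of these data known. Alternatives were TMM factors, DESeq2 1.42.0, limma 3.58.1 on log2(FPKM + 0.01) and log2(FPKM + 1), other filters, a single fit of all 11 libraries, and leaving out each library. Positions and promoters come from RefSeq on GRCm38.p6, the same assembly as mm10. Shared 100-base stretches were counted on the GENCODE transcripts.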

Additional observations from a re-analysis of the deposited data

How the results depend on the processing

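The number of genes called in skin was 3030 with DESeq2 and 894 with limma on log2(FPKM + 1). It was 258 to 2521 when a library was left out. The number of members called there was 7 with DESeq2, 1 with limma on log2(FPKM + 1) and 3 with no filter on low counts. Leaving out a library gave 0 to 5 members. A single fit of all 11 libraries called 4, namely *Cyp2g1*, *Cyp2s1*, *Cyp2w1* and *Cyp3a57*, and not *Cyp1a1* or *Cyp2j8*. In small intestine 1206 genes and 4 members were called with DESeq2, 0 members with limma on log2(FPKM + 1) and 0 in a single fit of all 11 libraries, and 294 to 801 genes and 0 to 3 members when a library was left out. For the interaction, DESeq2 called 1281 genes and 3 members, the fit with no filter 301 genes, each limma fit 1 member, and the fits without a library 144 to 1072 genes and 0 to 2 members. Between the control tissues, 10 of the 11 members tested were called where a count was required in every library. When a library was left out, 35 to 37 of the 38 or 39 tested were called. Leaving out a library turned the sign of 3 of the 21 members tested in skin, 11 of 29 in small intestine, 3 of 11 in the interaction and 1 of 37 between the control tissues, and 0 of these were called by edgeR in the fit of all libraries. Of those with a fold change in the report, the log2 fold changes ran from -0.30 to 0.22 for *Cyp2f2* in skin and from -0.22 to 0.30 for *Cyp2c65*, -0.24 to 0.89 for *Cyp3a11* and -0.058 to 0.78 for *Cyp3a25* in small intestine. The causes were not tested beyond the change in the genes or libraries that entered each fit. TMM factors moved the median of all genes between the tissues from -0.03 to -0.15 and changed the call of no member.

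No paired analysis was possible because the labels number the libraries 1 to 11, so that the groups share no number, and do not say which libraries came from the same mouse. With 2 treated libraries of small intestine, and members such as *Cyp2c70* under 1 FPKM, depth and the number of libraries limit what could be called there.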

Other observations

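Values of some low members are given here. *Cyp2a12* had 0.158, 0 and 0 FPKM in control small intestine and 0.215 and 0.834 in the 2 IMQ libraries, with no count in skin. *Cyp2b9* had 0 to 0.0499 FPKM in control skin and 0.0423 to 0.0914 in IMQ-treated skin, with no count in small intestine. *Cyp2a5*, which oxidizes coumarin and nicotine, had 0.371, 0.0340 and 0.111 FPKM in control skin and 0.0494 to 0.146 in IMQ-treated skin. *Cyp2r1*, a vitamin D 25-hydroxylase, had 0.424 to 0.982 FPKM in control skin and 0.547 to 1.20 in IMQ-treated skin, against at most 0.204 in small intestine.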
